A study of Mus musculus with 8 samples.

Results

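Dense clusters of distal accessible sites are stretches of the genome in which 5 or more open regions lie close together away from the ends of coding genes. Peaks of both ATAC-seq lists were merged into 44365 regions that held a peak of each replicate. Of these, 12536 were centred within 1 kb of an end of a coding gene and were set aside, which left 31829 distal regions. Distal regions whose centres lay 12500 bp or less apart were chained, and 751 of the 18455 chains, 4.07%, held at least 5 regions. These 751 dense clusters held 4688 regions, 14.7% of the distal regions, and each was named for the coding genes it overlapped or, failing that, for the nearest one. The clusters were selected on the positions of peaks called in both libraries, so their number, size and spacing describe the rule's outcome and were not tested. The peaks of replicate 2 alone, without replicate 1, gave 1475 clusters.

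The series has 8 mouse samples, of which the 2 ATAC-seq samples have files here. Both are unstimulated CD8-positive dendritic cells, replicates 1 and 2, with no agent added. One label gives the spleen as the source and another speaks of a cell line, and neither genotype nor age is stated in the sources used here. The other 6 samples are ChIP-seq for IRF3 after poly(I:C), IRF5 after CpG oligonucleotide and IRF9 after interferon-beta, which were not analysed here. The labels do not say whether the replicates are separate cultures, and their spread may be technical only. Replicate 1 had 50950 peaks and a median of 17 reads at the summit, and replicate 2 had 58319 peaks and a median of 22 reads. A site absent from the lists was not detectable at this depth. The clusters therefore hold the sites strong enough to be called in both libraries.

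ATAC-seq marks open DNA by letting a transposase cut and tag it in nuclei. Enhancers are open sites that bind transcription factors and act on promoters from a distance, and genes that define a cell type often have many of them in a row. CD8-positive dendritic cells of the mouse spleen are the conventional type 1 dendritic cells (cDC1). They take up dying cells, present their antigens to CD8 T cells, and depend on the transcription factors Irf8, Batf3 and Id2. Openness alone does not show that a site is an enhancer. Chromatin marks and expression were not used here.

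Some clustered regions reached an annotated transcript start that lies inside a gene or belongs to a noncoding gene. The stretches below are examples at clusters described later, some with and one without the motifs searched. They are the part of the RefSeq GRCm38.p6 promoter window that a clustered region covered, 5′ to 3′ on the gene's strand. A window runs 250 bases before a start to 50 after it. Capitals mark matches, on either strand, to 6 fixed motifs spelled out further on.
Lmna, chr3:88503303-88503450, minus strand: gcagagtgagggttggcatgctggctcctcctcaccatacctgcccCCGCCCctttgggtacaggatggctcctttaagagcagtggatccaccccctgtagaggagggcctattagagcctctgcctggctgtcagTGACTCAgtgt
Aim2, chr1:173420392-173420652, plus strand: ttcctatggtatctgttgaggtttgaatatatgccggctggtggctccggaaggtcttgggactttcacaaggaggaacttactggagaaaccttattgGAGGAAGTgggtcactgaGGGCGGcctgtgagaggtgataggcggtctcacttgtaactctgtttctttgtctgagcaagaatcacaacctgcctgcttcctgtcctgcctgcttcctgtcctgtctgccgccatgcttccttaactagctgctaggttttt
Exoc6, chr19:37550375-37550467, plus strand: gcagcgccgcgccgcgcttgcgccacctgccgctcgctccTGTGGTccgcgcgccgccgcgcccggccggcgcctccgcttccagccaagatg
Gm46343, a noncoding gene in a cluster upstream of Id2, chr12:25303539-25303757, plus strand: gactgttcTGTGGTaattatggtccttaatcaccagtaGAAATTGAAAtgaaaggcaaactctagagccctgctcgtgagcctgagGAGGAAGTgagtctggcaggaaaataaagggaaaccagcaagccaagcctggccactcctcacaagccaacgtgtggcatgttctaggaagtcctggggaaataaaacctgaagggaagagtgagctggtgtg
Dock10, chr1:80665303-80665502, minus strand: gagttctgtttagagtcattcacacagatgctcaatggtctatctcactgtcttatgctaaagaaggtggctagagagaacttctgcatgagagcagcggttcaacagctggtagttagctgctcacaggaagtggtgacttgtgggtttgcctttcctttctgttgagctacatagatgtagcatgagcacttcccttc
The Lmna stretch held an AP-1 motif and a GC box, and the Aim2 stretch held a PU.1 motif and a GC box. The Exoc6 stretch held a Runx motif, with a G and C content of 80.6%. The Gm46343 stretch held an interferon response element core, a PU.1 motif and a Runx motif. The Dock10 stretch held none of the 6.

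Most clusters were short runs of well spaced regions. The median cluster had 6 regions, with quartiles of 5 and 7, and spanned 23420 bp, with quartiles of 17551.5 and 31158 bp. Single gaps between neighbouring centres had a median of 4316 bp and quartiles of 1193 and 7710 bp over 3937 gaps. The clusters spanned 19.002 Mb in all, and their regions covered 1.00 Mb, 5.26% of that span.

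Few clusters were large. The plot of chains by size shows the numbers falling at every step up to 13 regions. There were 33 clusters of 10 or more regions, which held 416 regions, and 18 clusters were longer than 50 kb. At the threshold, 342 chains of 5 regions fell inside and 811 chains of 4 fell outside. The chains of 5 had a median span of 19752.5 bp and a median fold enrichment of 6.82, and the chains of 4 a median span of 13904 bp and a median fold enrichment of 7.08. The tightest chain of 5 had a mean gap of 355 bp and the tightest of 4 one of 247 bp.

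**Figure D1:**
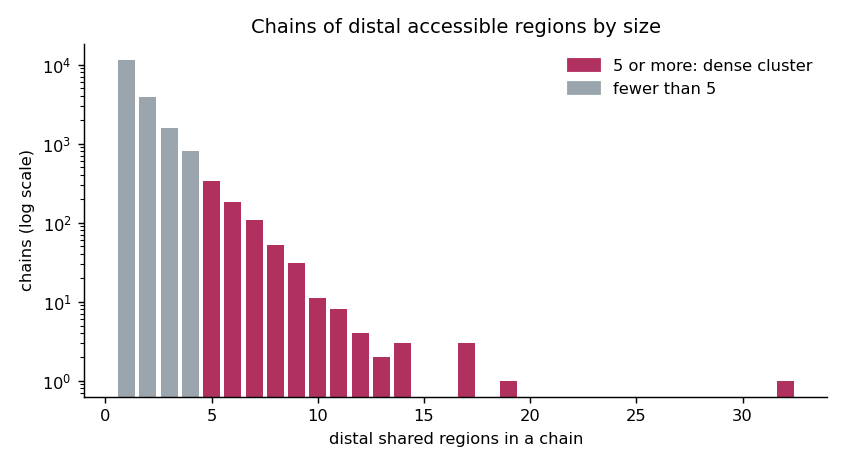
Number of chains (log scale) by the number of distal shared regions in the chain. The 751 chains of 5 or more regions are the dense clusters and are coloured apart from shorter chains, from 11449 chains of 1 region down to 1 chain of 32.

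The cluster with the most regions lay far from any coding gene and had a low fold enrichment. It held 32 regions on chromosome 9 (chr9:3000025-3038273), and its nearest coding gene, Alkbh8, a tRNA-modifying enzyme, was 296958 bp away. Fold enrichment, the authors' ratio of reads at a summit to local background with 1 added to each, had a median of 2.25 in replicate 1 and 1.90 in replicate 2. The median local background there was 49.2 reads in replicate 1 and 65.1 in replicate 2, against 1.20 and 1.97 over all distal regions. Reads at the summit were also many, with medians of 101.5 in replicate 1 and 122 in replicate 2, against 16 and 23 over all distal regions. Every region of this cluster was below a fold of 4 in both replicates. The rule left out no region for a high local background or for repeated sequence.

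Next in size came a cluster of 19 regions over 81096 bp around Batf3 (chr1:191057584-191138679), the AP-1 family factor that cDC1 need for their development. It also overlapped Nsl1, a kinetochore protein gene, and Tatdn3. Of its regions, 9 lay upstream of Batf3, 1 inside it and 9 past its end. Their fold enrichment ran from 3.52 to 11.95 with a median of 5.98 in replicate 1, and from 3.21 to 13.4 with a median of 5.80 in replicate 2. A further cluster of 10 regions lay farther to the right (chr1:191248554-191289051). Its nearest coding gene was not Batf3 but Nenf, which encodes a secreted protein and lay 17736 bp away.

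The longest cluster covered 99089 bp and 17 regions at Lmna, Sema4a, Mex3a and Rab25 (chr3:88446344-88545432). Lmna encodes the nuclear lamins A and C, and Sema4a a semaphorin that acts in T cell priming. Fold enrichment had a median of 7.18 in replicate 1 and 6.85 in replicate 2, and the highest values, 11.4 and 9.95, were those of the region at the Lmna start printed above. A cluster of 17 regions at Exoc6, an exocyst subunit gene, had 13 regions before the gene's start and 4 inside it (chr19:37488948-37561794). Its median fold was 5.996 in replicate 1 and 7.30 in replicate 2. Another 17 regions lay at Gm52481 on chromosome Y, with medians of 4.26 and 3.80 and a local background of 7.97 and 11.3 reads.

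The other 5 of the 10 largest clusters differed in where they lay relative to their genes. The 14 regions at Aim2, a sensor of cytosolic DNA that starts an inflammasome, all lay inside the gene's annotated extent (chr1:173391917-173452641), with a median fold of 7.70 in replicate 1 and 6.97 in replicate 2. The 14 at Dock10 also lay inside the gene (chr1:80635991-80677948), with medians of 5.93 and 6.21. The 13 regions at Dtnb and Dnmt3a included 11 upstream of the start of Dnmt3a, a de novo DNA methyltransferase gene (chr12:3740118-3812937). Their medians, 7.96 and 8.84, were the highest of the 10 in both replicates. At Cd9, a tetraspanin gene, 12 of 13 regions lay past the gene's end (chr6:125392740-125461547), with medians of 6.53 and 6.06. The remaining cluster held 14 regions near the predicted gene Gm40363 (chr6:47739863-47791021), with medians of 5.25 and 4.59.

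**Figure D2:**
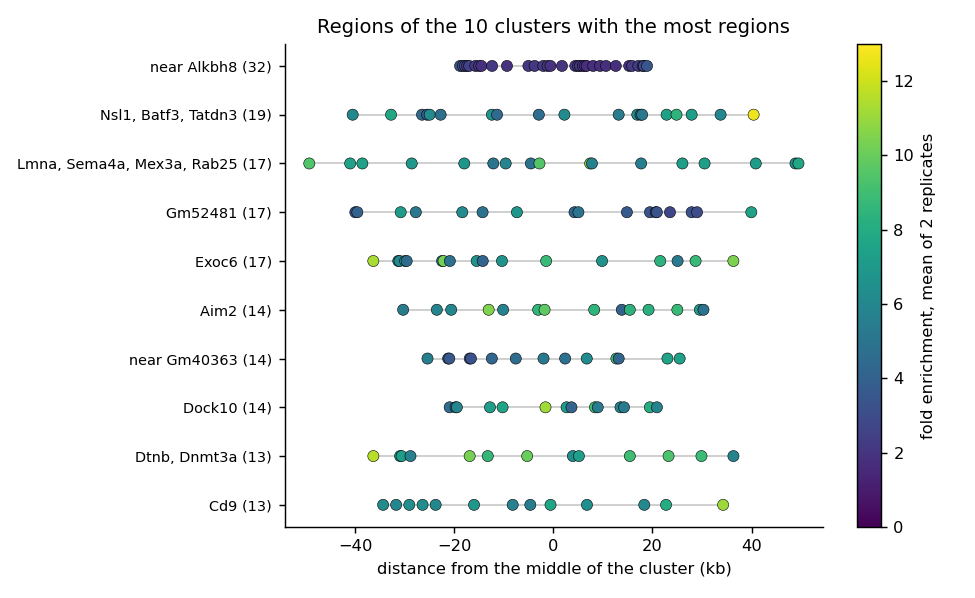
Positions of the regions of the 10 clusters with the most regions, in kb from the middle of each cluster, coloured by fold enrichment (mean of the 2 replicates). The 32 regions near Alkbh8 all have a fold below 4, whereas those at Dtnb and Dnmt3a have medians of 7.96 in replicate 1 and 8.84 in replicate 2.

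The 5 clusters with the highest median fold over both replicates were small, with 5 or 6 regions each. The cluster at Stac, an adaptor protein gene, led with 6 regions and medians of 10.9 in replicate 1 and 12.4 in replicate 2 (chr9:111542317-111577767). The cluster nearest to P4ha2, a collagen prolyl hydroxylase gene, had 5 regions and medians of 11.8 and 10.1. The cluster nearest to Tet2, which encodes an enzyme that oxidises methylcytosine, had 5 regions 81.2 to 107 kb upstream of its start and medians of 10.1 and 10.5. The clusters at Lpgat1, a lipid acyltransferase gene, and nearest to Adgrl2, 479113 bp away, had medians of 9.95 and 11.4, and 10.6 and 10.3. In all, 11 clusters had a median fold above 10.

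Of the 751 clusters, 524 overlapped a coding gene and 227 did not. For those 227 the nearest gene end was a median of 22182 bp away, and for 36 it was over 100 kb away. The largest of them, beside those near Alkbh8, Gm40363 and Nenf, were 11 regions near Chd2, a chromatin remodeller gene (chr7:73552180-73628400), and 11 near Wwox, an oxidoreductase gene (chr8:115407656-115451113). The cluster near Chd2 had a median fold of 5.99 in replicate 1 and 6.85 in replicate 2 and took in the start of the noncoding gene Chaserr. The cluster near Wwox had medians of 7.58 and 8.03.

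Clustered regions had a lower fold enrichment than other distal regions in both replicates. The median was 6.54 in clustered and 7.35 in other distal regions in replicate 1, and 6.70 in clustered and 7.85 in other distal regions in replicate 2. Reads at the summit went the other way, with medians of 19 in clustered and 16 in other distal regions in replicate 1, and of 27 and 23 in replicate 2. Local background was also higher, at 1.96 in clustered and 1.11 in other distal regions in replicate 1, and at 3.02 and 1.84 in replicate 2. The ranges overlapped: the quartiles of fold were 5.37 and 8.20 in clustered and 6.01 and 9.13 in other distal regions of replicate 1. Regions are not replicates of a condition, so no test was made of these differences.

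The difference grew step by step with the size of the chain. Single regions had a median fold of 7.76 in replicate 1 and 8.34 in replicate 2, and regions in chains of 10 or more had 6.02 and 6.14. Over the same sizes the median reads went up, at 14 and 21 for single regions and 23 and 31 for chains of 10 or more. The median local background was 0.843 and 1.48 for single regions, and 2.54 and 3.75 for chains of 10 or more. Chains were built from close neighbours, whose reads may also count in a local background, so fold and chain size are not independent measures. What part the local background has in the lower fold was not tested. Distal regions were also split at the quartiles of local background in replicate 2. In the set with the highest background, where 30.8% of the regions were clustered, the median fold was 6.04 in clustered and 6.48 in other distal regions of replicate 1, and 6.005 and 6.67 in replicate 2. In the next set down it was 7.02 in clustered and 7.84 in other distal regions of replicate 1, and 7.42 and 8.31 in replicate 2. In the one below that it was 7.33 in clustered and 7.79 in other distal regions of replicate 1, and 7.82 and 8.53 in replicate 2. The gap was thus widest in the middle sets. In the set with the lowest background, where 3.96% were clustered, it was 7.16 in both sets in replicate 1, and 7.72 in clustered and 7.65 in other distal regions in replicate 2.

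**Figure D3:**
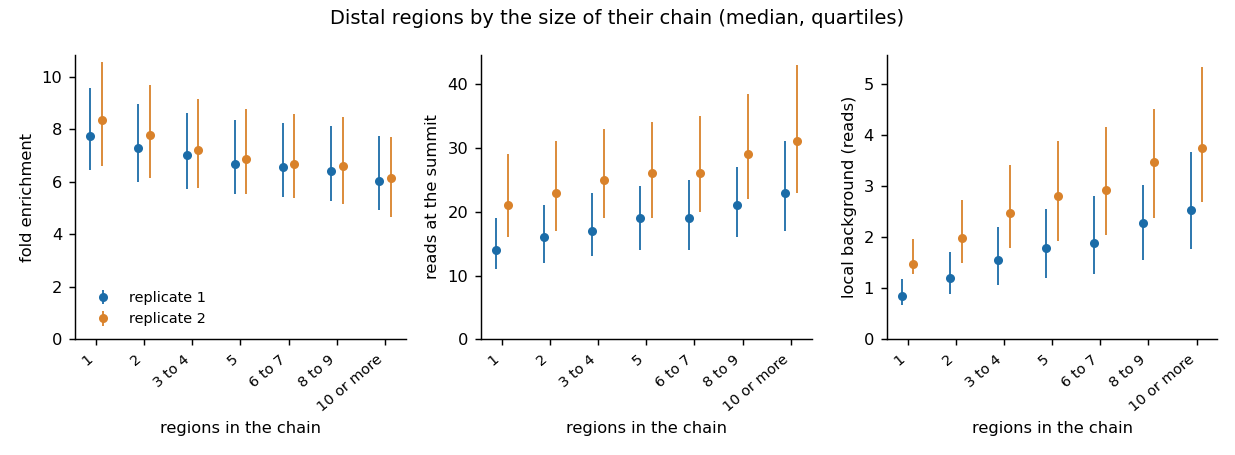
Fold enrichment, reads at the summit and local background of distal regions by the number of regions in their chain, as medians (points) with quartiles (lines) for replicates 1 and 2. Fold is lowest, and reads and background highest, in chains of 10 or more.

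Width told the sets apart little, with a median of 188 bp in clustered and 186 bp in other distal regions. A peak of replicate 1 with several summits was present in 14.3% of clustered and 12.55% of other distal regions, and 14.01% and 12.2% had one in replicate 2. The median fold of a cluster in replicate 1 and in replicate 2 had a Spearman rank correlation of 0.74 over the 751 clusters, which share both libraries. Cluster spans also held 164 regions called in replicate 1 alone and 429 called in replicate 2 alone, and 376 clusters held neither.

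A total of 819 of 21887 coding genes, 3.74%, were named for a cluster. Of these, 614 were overlapped by one, 2.81% of coding genes, and 205 were only the nearest gene. Overlapped genes were long, with a median of 47.6 kb, against 17.2 kb over all coding genes. The share of genes named was 1.37% among genes below the lower quartile of length and 7.22% among those above the upper quartile. An accessible end, meaning a shared region within 1 kb of either end, was found for 65.3% of overlapped genes and 68.3% of nearest genes, against 47.3% of all coding genes. Among genes above the upper quartile of length it was found for 63.8% of overlapped and 48.4% of unnamed genes, a set that still spans 44.3 to 2390 kb. The part of length in these shares was not tested.

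Genes with several clusters were few. Of the 819, 40 had 2 or more and 4 had 3, namely Id2, Asap1, Dennd1b and Phc2. Id2, an inhibitor of E proteins that cDC1 require, had the most regions of the 4, 21 in all. Its clusters lay upstream of its start, at 44.4 to 68.9 kb with 6 regions, at 81.9 to 128 kb with 7 and at 205 to 244 kb with 8. Their median folds were 7.02, 7.62 and 6.77 in replicate 1, and 7.28, 7.53 and 7.49 in replicate 2, so the 3 were alike in strength.

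The gene lists were written with earlier results of these data known, so the shares given for them are not independent of these peaks. Of 28 genes known for cDC1 identity, 8 were at a cluster, or 28.6%, against 3.74% of all coding genes. They were Batf3, Rab7b, Id2, Flt3, Irf8, Cadm1, Clec9a and Xcr1. Without replicate 1 the count was 14, against 6.99% of all coding genes. With a gene end window of 2 kb it was 5, against 2.90%. It was 1 with regions linked within 5 kb, against 0.452%, and 1 in the better-scoring 50% of each list, against 0.329%. With a fold of at least 6 in both lists it was 1, against 0.521%. Irf8, the factor on which the cDC1 lineage rests, had no cluster across its own body but 2 past its end (chr8:120763322-120777457 and chr8:120792802-120832241). They lay 27.0 to 41.1 kb and 56.4 to 95.9 kb from its start. The nearer one had 5 regions with a median fold of 7.62 in replicate 1 and 8.47 in replicate 2. The farther one had 6 regions with medians of 7.33 and 5.64, the widest gap between replicates among these genes.

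Apart from Id2, whose clusters all lay upstream as given above, the other genes of this list had clusters that overlapped the gene. Clec9a, which recognises actin of dead cells, had 5 regions across its start (chr6:129402568-129421565), 3 upstream and 2 inside, with medians of 6.49 in replicate 1 and 6.69 in replicate 2. The whole of this cluster lay within the extent of Clec12b, and it also overlapped Clec1b, so it cannot be given to Clec9a alone. Xcr1, the receptor for the chemokine Xcl1, had 5 regions (chr9:123856922-123873096), 4 of them upstream, with medians of 7.11 and 7.69. Flt3, the receptor for the growth factor of dendritic cells, had 6 regions, 5 inside the gene and 1 past its end (chr5:147319792-147363424), in a cluster that also overlapped Urad, with medians of 7.99 and 7.81. Cadm1, an adhesion molecule, had 6 regions inside the gene with medians of 7.66 and 7.68. Rab7b, a GTPase of late endosomes, had 12 regions over 50639 bp, shared with Ctse, with medians of 7.12 and 7.22. The folds of single regions at all 8 genes overlapped, so the genes did not separate by strength.

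**Figure D4:**
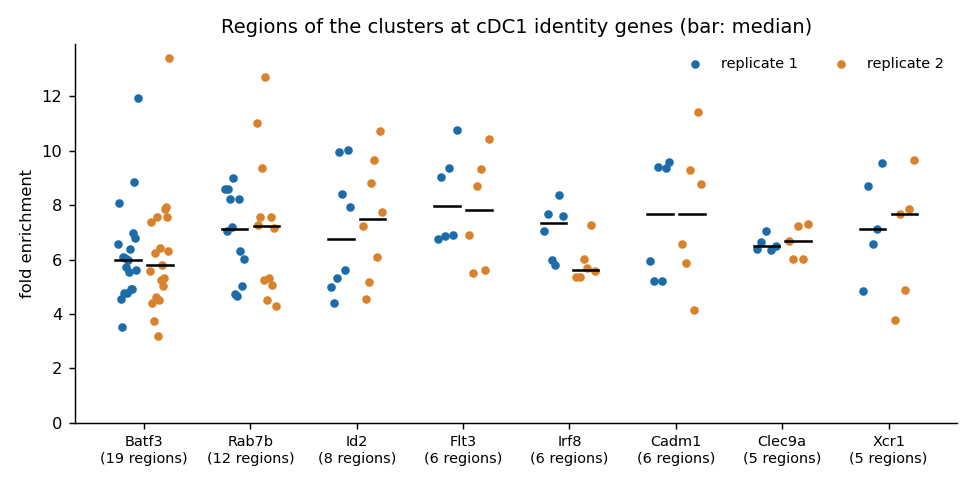
Fold enrichment of each region (points) in the clusters at 8 cDC1 identity genes, in replicates 1 and 2, with the median as a bar; for Id2 and Irf8 the cluster with the most regions is drawn. The values of the genes overlap, and the highest is 13.4, at Batf3 in replicate 2.

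Transcription factors of blood lineages had a higher share at clusters, 13 of 30 or 43.3%, against 3.74% of all coding genes. Batf3, Id2 and Irf8 were counted in both lists. Of the 30, 6 were overlapped by a cluster, against 2.81% of all coding genes. The rest of the 13 were only the nearest gene. Fli1, an ETS factor, had 7 regions inside the gene and medians of 6.98 in replicate 1 and 6.92 in replicate 2. Klf4, a zinc finger factor, was the nearest gene to 5 regions 266 to 292 kb upstream of its start, with medians of 8.53 and 8.76. Spi1, which encodes PU.1, had 5 regions with lower medians of 4.77 and 5.10. The others were Mef2c, Etv6, Prdm1, Runx3, Id3, Stat3 and Notch2. Genes of actin and cell adhesion reached a like share, 11 of 24 or 45.8%, and 10 of these were overlapped by a cluster. Among them were Elmo1, which helps to activate Rac, with 10 regions and medians of 6.75 and 7.40, and Actb with 9, shared with Fbxl18, and medians of 5.80 and 5.45. These lists hold long genes, with medians of 43.1 and 37.8 kb, and the part of length in their counts was not tested. With regions linked within 5 kb, 2 lineage factors and 0 actin and adhesion genes were at a cluster, against 0.452% of all coding genes. In the better-scoring 50% of each list the counts were 1 and 1, against 0.329%.

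Interferon-stimulated genes were at clusters about as often as all coding genes, of which 3.74% were. Of 37 with a coding entry, 1 was, or 2.70%, and this was Usp18, a brake on interferon receptor signalling, with 5 regions and medians of 7.91 in replicate 1 and 8.58 in replicate 2. Yet 28 of the 37 had an accessible end, or 75.7%, against 47.3% of all coding genes. None of 18 type I and III interferon genes was at a cluster. In a list of this size a count of 0 is close to the share of all coding genes. These 18 genes are also short, with a median of 0.667 kb. Of 33 genes for sensing nucleic acids or passing on the interferon signal, 3 were at a cluster, or 9.09%. They were the receptor chains Ifnar1 and Ifnar2, and Irf5, with 5 regions each. Irf5, 1 of the 3 factors studied by ChIP-seq, had 3 regions upstream and 2 inside, with medians of 4.58 and 4.77, while Ifnar1 had 5.61 and 5.80. Ifnar1 and Ifnar2 were each only the nearest gene.

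Other immune lists lay between, where 3.74% of all coding genes were at a cluster. NF-kB and maturation genes had 5 of 25 (20.0%), namely Tnip3, Cd86, Tnip1, Icosl and Rel. Tnip3, an inhibitor of NF-kB signalling, had 9 regions with medians of 7.15 in replicate 1 and 8.81 in replicate 2. Antigen presentation had 4 of 22 (18.2%), namely Ciita, H2-DMa, H2-Ab1 and Cd74, and inflammatory cytokines and chemokines 3 of 26 (11.5%), namely Il10, Il1b and Il15. Ciita, the master regulator of MHC class II genes, had 7 regions with medians of 6.24 and 5.96. H2-Ab1, an MHC class II chain, had 6 regions with medians of 5.26 and 4.796. Housekeeping genes, which are not an immune list, had 2 of 20 (10.0%), Actb and Ywhaz, a share near that of the cytokines and chemokines.

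Markers of other cells were counted in the same way, with 3.74% of all coding genes as the background. No gene was at a cluster among 16 of plasmacytoid dendritic cells, 16 of T cells, 15 of neutrophils, 15 of fibroblasts, 18 of neurons and 16 of hepatocytes. In lists of this size a count of 0 is close to the background share, so it does not set these cells apart from genes at large. B cell markers had 1 of 13, Fcrla, and erythroid markers 1 of 13, Klf1. Markers of cDC2, the other conventional type, had 3 of 16, namely Csf1r, Klf4 and Notch2. Accessible ends were found for 18 of 28 cDC1 genes (64.3%), 6 of 16 for cDC2 (37.5%), 5 of 16 for plasmacytoid dendritic cells (31.3%), 4 of 13 for B cells (30.8%), 3 of 16 for T cells (18.8%) and 1 of 13 for erythroid cells (7.69%), against 47.3% of all coding genes. Peaks cannot tell a gene open in all cells from one open in a few.

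**Figure D5:**
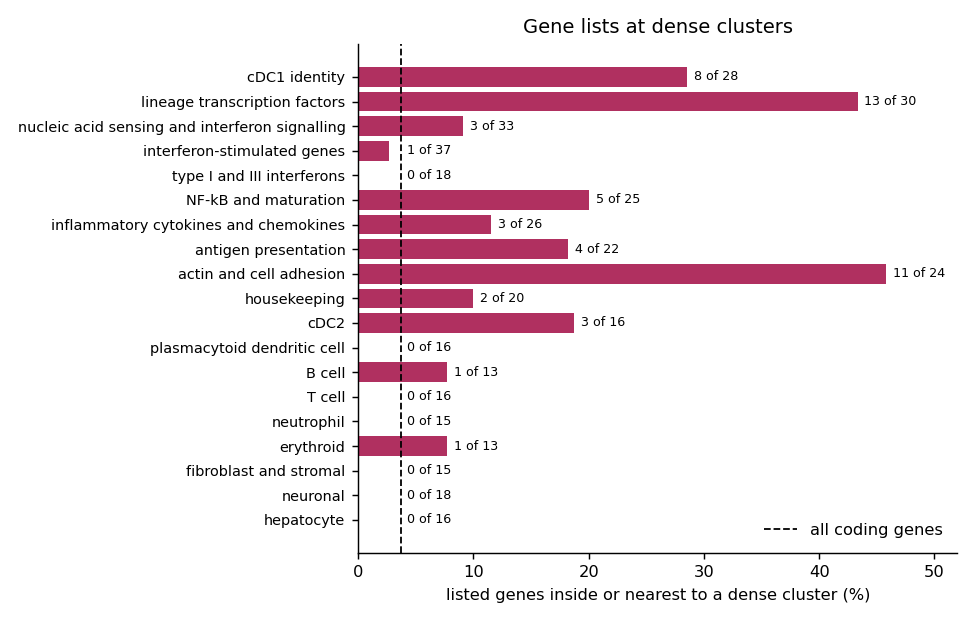
Share of the genes of 19 lists that a dense cluster overlapped or had as its nearest coding gene, with counts beside the bars; the dashed line marks all coding genes, 3.74%. Actin and adhesion genes, lineage factors and cDC1 identity genes have the highest shares, and 7 lists have none. The lists were written with earlier results of these data known.

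In position, clustered and other distal regions were much alike. A coding gene held 52.4% of clustered and 55.3% of other distal regions. The nearest annotated start of a coding gene was a median of 26.7 kb from clustered and 30.8 kb from other distal regions. It lay over 100 kb away for 20.8% and 24.1%. Inside a single gene of known strand, 1943 clustered regions lay a median of 27.6 kb from its start, and 11929 other distal regions a median of 25.9 kb. The chromosomes differed more. The share of distal regions that were clustered was 14.7% over all chromosomes. Among the autosomes it was 21.8% on chromosome 15, 20.8% on chromosome 1 and 20.1% on chromosome 8, against 8.09% on chromosome 11. It was 8.62% on X. On Y it was 51.5%, or 17 of only 33 regions, all in the cluster at Gm52481. Chromosome 8 carried 10 of the 33 clusters of 10 or more regions. Its distal regions also had the highest local background of the autosomes, with medians of 1.64 in replicate 1 and 2.70 in replicate 2, and the part of this in its count was not tested.

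Clustered regions touched 213 of 32851 promoter windows, or 0.648%, of which 139 belonged to coding and 74 to noncoding genes. The coding ones exist because a window lies at the start of a transcript, while gene ends were taken at the outermost extent of the gene. The 6 motifs were searched on both strands by fixed letters, with N for any base. They were AP-1 (TGANTCA), PU.1 (GAGGAAGT), Runx (TGTGGT), the GC box (GGGCGG), the interferon response element core (GAAA, 2 bases of any kind, GAAA) and NF-kB (GGGA, any base, TT, any base, CC). None of the 6 holds another. Of the windows touched by clustered regions, 7.04% held the PU.1 motif, as printed for Aim2 and Gm46343, against 6.35% of those touched by other distal regions and 3.20% of all 32817 windows with sequence. AP-1 was in 9.86%, against 6.72% with other distal regions, 7.81% of all windows and 9.28% of the 22810 windows touched by no shared region. The GC box was in 46.0%, against 56.3% with other distal regions and 35.6% of all windows.

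The other motifs were near the share of all windows or rare. The interferon response element core was in 3.29% of windows touched by clustered regions, against 3.504% with other distal regions and 3.43% of all. The Runx motif was in 15.02%, against 15.04% with other distal regions and 16.8% of all, and the NF-kB motif in 2.35%, which is 5 windows, against 1.02% and 1.20%. Median G and C content was 57.0% with clustered regions, 59.3% with other distal regions and 52.7% in all windows. These are shares of letters in a window, and binding was not measured.

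Of 1005 microRNA hairpins, 20 lay within the span of a cluster, or 1.99%. MicroRNAs are short RNAs that pair with messenger RNAs mainly through their seed, bases 2 to 8, in capitals here. The hairpin of Mir9-2 lay wholly inside a region of the cluster whose nearest coding gene is Mef2c, a factor of myeloid and lymphoid cells. That region (chr13:83738605-83738919) had a fold of 14.2 in replicate 1 and 17.8 in replicate 2, the highest of its cluster of 6. The hairpins of Mir23a, Mir27a and Mir24-2 lay together in a cluster of 11 regions at Zswim4 (chr8:84186559-84223656). The nearest region to them, 497, 651 and 794 bp away, had a fold of 5.35 in replicate 1 and 4.51 in replicate 2. Their main mature forms have seeds that differ from each other.
mmu-miR-9-5p: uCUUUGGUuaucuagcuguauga
mmu-miR-23a-3p: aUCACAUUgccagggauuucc
mmu-miR-27a-3p: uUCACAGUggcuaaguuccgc
mmu-miR-24-3p: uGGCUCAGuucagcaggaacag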

How the data were processed

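Open chromatin was measured by ATAC-seq in 2 samples. Per the file headers and layout, the authors called peaks on each sample by itself, with 1 entry per summit. Per the submitters' processing notes, the tools were MACS2, HOMER 4.9.1, Picard 2.8.1, BWA 0.7.17 and Trimmomatic and the build mm10. Their roles, the shifting of reads and the removal of duplicates are not given in the sources used here.

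The deposited fold enrichment is a ratio of summit reads to local background with 1 added to each, the authors' −log10 p and −log10 q give the excess over it, and the deposited score is 10 times the −log10 q. Each peak kept its best summit. The lowest −log10 q was 3.00 in both lists, and sites with under 7 reads (replicate 1) or 9 (replicate 2) at the summit are not listed. Reads and background were worked out from fold and p, which gave back the deposited −log10 p within 0.002 for 100% of summits.

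Peaks were merged where they overlapped by 1 bp, with Python 3.11.15, numpy 2.4.6 and pandas 2.3.3. Gene extents, promoter windows and microRNAs came from RefSeq GRCm38.p6. The chaining code was tested on simulated data. Clusters were named in the text by rule: the 10 with the most regions, the 5 with the highest median fold, the 5 largest without a coding gene, and those at listed genes. Other names were chosen after their values were seen. The clusters and gene lists were chosen with earlier results of these data known. The planned motif search in the regions themselves was replaced by one in promoter windows, because a genome sequence was not used here. Alternatives covered the linking distance, cluster size, gene end window, overlap, peak threshold and each replicate alone.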

Additional observations from a re-analysis of the deposited data

How the results depend on the processing

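No paired analysis was possible because only 1 group of samples has files and no test was made. The number of clusters follows the rule and the peak threshold. Against 751 clusters, 14.7% of distal regions, 819 genes, a median of 6 regions and a median span of 23420 bp, linking within 5 kb gave 92, 1.67%, 99, 5 and 8413 bp. Linking within 20 kb gave 1348 clusters, 29.4%, 1740 genes and 38097 bp. Asking for 4 regions gave 1562, 24.9%, 1560, a median of 4 and 17838.5 bp, and asking for 8 gave 116, 3.49%, 146, a median of 9 and 38218.5 bp. The better-scoring 50% of each list gave 63 clusters, 2.53%, 72 genes, a median of 5, 24949 bp and at most 10 regions in a cluster. A fold of at least 6 in both lists gave 104, 2.82%, 114, 5, 29637 bp and at most 8. Leaving out the ends of all annotated genes gave 12.2% and 23692 bp, and gene end windows of 500 bp and 2 kb gave spans of 24128 and 22928 bp. Each replicate alone gave 1077 to 1475 clusters, 18.9 to 22.4% of its distal regions, 1138 to 1529 genes and spans of 22395 to 22675 bp.

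Every alternative still chose clustered regions by close neighbours, so a like sign of the fold difference among them is not independent support for weaker sites. The median fold of clustered minus other distal regions was -0.95 and stayed below 0 under every alternative run. It was -2.12 with 5 kb, -0.71 with 20 kb, -0.90 with 4 and -1.12 with 8 regions, -0.87 without the ends of all genes, -0.99 with a reciprocal overlap of 50%, -1.79 in the better-scoring 50%, -0.41 with a fold of at least 6, and -0.75 to -0.72 with 1 replicate. Of the 751 clusters, 12.3% were overlapped by a cluster with 5 kb, 8.39% in the better-scoring 50% and 13.8% with a fold of at least 6, and 5 clusters were overlapped under every alternative other than 8 or more regions. The cDC1 genes at a cluster, 8 as reported against 3.74% of all coding genes, were 5 with a 2 kb window (2.90%), 14 with chains of 4 (7.13%), 1 with 5 kb (0.452%), 1 in the better-scoring 50% (0.329%), 14 without replicate 1 (6.99%) and 10 without replicate 2 (5.20%). Actin and adhesion genes, 11 as reported, were 7 with a 2 kb window, 7 without the ends of all genes, 0 with 5 kb and 1 in the better-scoring 50%, and lineage factors, 13 as reported, were 12, 11, 2 and 1 under these settings. As alternatives chosen after seeing the data, autosomes and X alone gave 750 clusters, and a median fold of at least 4 gave 748, of which the largest held 19 regions and not 32. Causes of these changes were not tested, beyond the stricter rules leaving fewer regions. Depth limits the lists to sites with enough reads in both libraries.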

Other observations

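Some clusters stood apart in spacing or strength; they were picked out after their values were seen. A median fold below 4 was found in 3 clusters, the one of 32 regions on chromosome 9, one of 8 regions far from Esp38 (chr17:39843050-39848792) and one of 6 near Olfr1423 (chr19:12010989-12024467). Their median folds were 2.25, 2.04 and 3.89 in replicate 1, and 1.90, 1.999 and 3.40 in replicate 2. A mean gap under 1 kb was found in 6 clusters, among them 9 regions within 3742 bp on chromosome 14 with a median local background of 23.5 reads in replicate 1 and 30.6 in replicate 2.

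Even spacing, taken as at least 4 gaps in a row, each within 5% of their median, was found in 2 clusters, both on chromosome 6. At Cd9, 5 regions followed each other at 2631 to 2677 bp. In the other, all 8 regions of the cluster followed each other at 4270 to 4352 bp (chr6:47654899-47685697). The folds of these 8 ran from 4.46 to 6.23 in replicate 1 and from 3.75 to 6.20 in replicate 2. The cluster overlapped several predicted genes, Gm40365, Gm40363, Gm40367, Gm36327, Gm40369 and Gm40364. Gm40363 was also the gene nearest to the cluster of 14 regions described above.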
